A study of Mus musculus with 6 samples.

Results

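The Krüppel-like factors (KLFs) studied here were the 9 family members Klf2, Klf3, Klf4, Klf5, Klf6, Klf9, Klf10, Klf13 and Klf16, taken by gene symbol from the 17485 genes listed in each count file. All 9 were found and all 9 passed the filter on low counts that left 12755 genes for testing. They were described as pluripotency-linked members (Klf2, Klf4 and Klf5), stress-induced members (Klf6 and Klf10) and the 4 remaining members. RNA abundance was measured in E14 cells, an embryonic stem cell line of the mouse with a 129/Ola background, grown on gelatin in serum with leukaemia inhibitory factor (LIF). At 24 h after seeding the cells were given cycloheximide (250 µg/mL, dissolved in ethanol at 0.007%) and collected after 3 h or 6 h, while control cells had only the ethanol, for 9 h. Each group had 2 libraries, 6 in all. Drug and length of ethanol exposure therefore cannot be told apart, and the labels do not say whether the libraries of a group came from separate cultures, so p-values measure only the spread between these libraries.

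KLFs are transcription factors that bind GC-rich and CACCC sequences through zinc fingers at their C-terminal end and are otherwise divergent. In mouse embryonic stem cells Klf2, Klf4 and Klf5 support naive pluripotency with partly overlapping functions; Klf4 and Klf5 lie downstream of LIF and STAT3, and Klf4 is one of the classical reprogramming factors. Klf6 and Klf10 are known as early-response genes, Klf10 under its older name TIEG1 as a gene induced early by TGF-beta. Cycloheximide blocks translation elongation, so new protein is not made while transcription can go on. RNA levels alone cannot tell a change in transcription from a change in mRNA decay, and neither was measured here.

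Library totals ran from 9385447 to 27351079 counts, with control replicate 2 the shallowest and the 6 h libraries the deepest. The share of counts from mitochondrially encoded genes declined in the order of the groups, being 24.7% and 24.9% in the control libraries, 19.6% and 18.9% after 3 h and 17.4% and 16.6% after 6 h, and detected genes went from 13499 and 14399 in control to 16013 and 15971 at 6 h. Without the mitochondrially encoded genes, and with all libraries thinned to the smallest total, 4, 6 and 2 members were again called at 3 h, at 6 h and between the times. Counts of the 9 members ran from 224 to 18985 per library, all far above the floor of 3 counts used for detection. Values below are CPM, counts brought to a common library total, with TMM scaling (edgeR's trimmed mean of M values), which corrects that total for differences in RNA composition. Replicate libraries differed beyond counting noise (chi-square over its degrees of freedom between 18.7 and 27.7). The 9 embryonic stem cell markers were all detected and summed to 6704 and 6882 CPM in control, 7615 and 7835 CPM at 3 h and 5496 and 5294 CPM at 6 h. Of the fibroblast markers, 7 of 9 were listed and summed to between 5.48 and 11.7 CPM, with Dcn at no more than 3 counts in any library. In bulk RNA, fewer cells of a type and less RNA per cell cannot be told apart.

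Promoter sequences from RefSeq (GRCm38.p6, the build that the submitters' processing notes name as mm10) were matched to 6 of the 9 members, Klf2, Klf3, Klf4, Klf6, Klf9 and Klf13. The 250 bases before the RefSeq start site are shown for Klf6, Klf2 and Klf4, the matched members that were called higher at 3 h. Among them Klf4 alone was called between 3 h and 6 h. Gene positions given further on are those of GENCODE M21, whose start sites can differ: the Klf2 and Klf6 windows run past the GENCODE starts, by 29 and 7 bases, and the Klf3 window, not shown, by 133. Capitals mark matches, on either strand, to the CCAAT box, the E box CACGTG, the CREB core TGACG, the AP-1 site TGANTCA, the STAT site TTCNNNGAA, the TATA box TATAAA, the MEF2 box and the CArG box.
Klf6, chr13:5861239-5861488, plus strand: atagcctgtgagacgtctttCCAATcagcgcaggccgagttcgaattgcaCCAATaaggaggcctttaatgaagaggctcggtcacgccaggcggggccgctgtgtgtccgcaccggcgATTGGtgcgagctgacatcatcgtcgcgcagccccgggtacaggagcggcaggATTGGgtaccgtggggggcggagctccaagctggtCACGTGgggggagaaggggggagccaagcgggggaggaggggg
Klf2, chr8:72318812-72319061, plus strand: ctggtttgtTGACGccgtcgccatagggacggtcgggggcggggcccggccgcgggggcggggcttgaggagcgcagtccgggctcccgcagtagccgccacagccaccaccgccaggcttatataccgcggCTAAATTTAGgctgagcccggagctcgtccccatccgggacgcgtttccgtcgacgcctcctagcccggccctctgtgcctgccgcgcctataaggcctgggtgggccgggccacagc
Klf4, chr4:55532476-55532725, minus strand: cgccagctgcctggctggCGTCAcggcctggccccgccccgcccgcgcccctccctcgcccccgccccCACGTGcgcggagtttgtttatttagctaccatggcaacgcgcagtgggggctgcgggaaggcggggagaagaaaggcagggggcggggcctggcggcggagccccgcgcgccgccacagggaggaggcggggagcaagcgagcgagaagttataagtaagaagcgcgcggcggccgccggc

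The Klf6 window held 4 matches to CCAAT, a motif present in 33.8% of 32851 mouse promoter windows of the same length, and 1 to CACGTG, present in 6.02%. CCAAT was absent from the Klf2, Klf4 and Klf3 windows and present in those of Klf9 (3 matches) and Klf13 (2 matches), neither of which was called higher. Klf2 held 1 match to the MEF2 box, found in 2.92% of promoters, and Klf2 and Klf4 each held 1 match to TGACG, found in 17.8%. The GC box GGGCGG, present in 32.7% of promoters, was found 1 time for Klf6, 2 times for Klf2 and 4 times for Klf4. No CArG box, the element bound by serum response factor and present in 1.47% of promoters, was found in any of the 6 windows, and none held TGACGTCA, which contains TGACG and occurs in 1.55%. Matches describe letters in the reference, not binding.

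At 3 h against control, 4 of the 9 members were called higher (3.6% of all tested genes were) and 0 lower (1.3% were) by edgeR's quasi-likelihood test at a Benjamini-Hochberg adjusted p under 0.05, where 4.9% were called in either direction. Those called were Klf2, Klf4, Klf6 and Klf10. No member was lower at an unadjusted p under 0.05 either, a level reached by 24.7% of all genes in either direction, and limma-voom and DESeq2 also called 4 higher and 0 lower. At 6 h against control 6 members were called, where 29% of all tested genes were: Klf2, Klf6 and Klf10 were higher, as were 14.8% of all genes, and Klf3, Klf5 and Klf13 were lower, as were 14.3%. Between 3 h and 6 h Klf10 rose and Klf4 fell, where 1.64% of all tested genes were called, 0.455% higher and 1.18% lower. The control libraries are shared by the 3 h and the 6 h comparison. The median log2 fold change of the members was 0.62 at 3 h, -0.04 at 6 h and -0.57 between the times, against 0.02, 0.04 and 0.0060 over all tested genes.

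**Figure D1:**
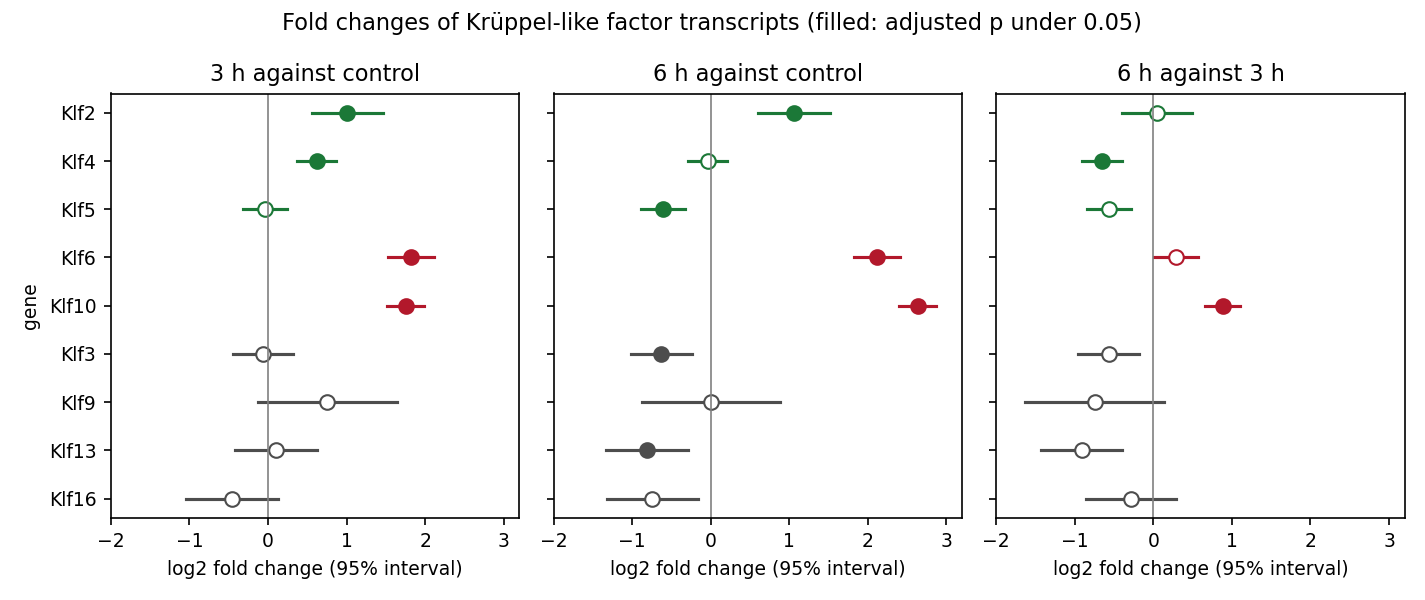
Log2 fold change (x axis) of each member (y axis) in the 3 comparisons, with 95% intervals from the edgeR fit; filled points have an adjusted p under 0.05, green marks pluripotency-linked, red stress-induced and grey other members. Klf10 and Klf6 lie farthest to the right at both times, and Klf10 is the only filled point to the right of 0 between 3 h and 6 h.

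**Figure D2:**
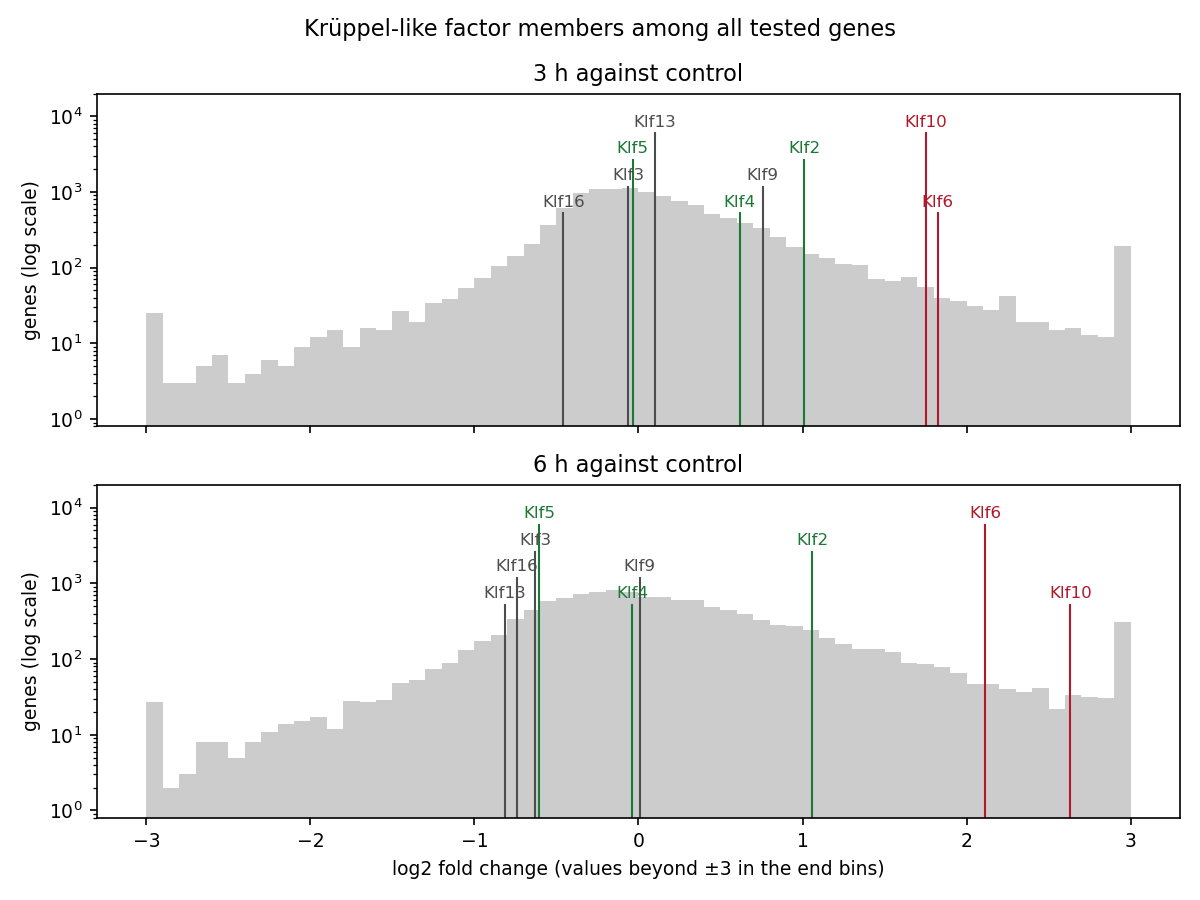
Histogram of log2 fold changes of the 12755 tested genes (x axis; y axis is the number of genes on a log scale) at 3 h and 6 h against control, with each member marked by a line in the colour of its role. At 6 h the lines of Klf6 and Klf10 stand at 2.11 and 2.63, while those of Klf3, Klf5, Klf13 and Klf16 lie between -0.81 and -0.61.

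Klf10 (chromosome 15, 38291463 to 38300706, minus strand in GENCODE M21) encodes a repressor that works with the Sin3 corepressor. It stood at 105 and 97.3 CPM in the control libraries, at 347 and 336 CPM at 3 h and at 626 and 631 CPM at 6 h. The libraries of the 3 groups did not overlap, and the order was control, 3 h, 6 h. The log2 fold change was 1.75 ± 0.10 (SE; edgeR adjusted p = 8.85e-05) at 3 h and 2.63 ± 0.11 (SE; edgeR adjusted p = 7.58e-06) at 6 h, a 6.2-fold increase. By its p-value Klf10 ranked 9 of 12755 genes at 3 h and 4 at 6 h. From 3 h to 6 h it rose a further 1.84-fold (log2 0.88 ± 0.10, SE; edgeR adjusted p = 0.00607). The later rise was between 0.86 and 1.01 on the log2 scale in 18 alternative analyses, but the call was lost without any 1 of the 4 treated libraries, where the adjusted p was 0.0861, 0.104, 0.0548 and 0.0942 (without 3 h replicate 1, 3 h replicate 2, 6 h replicate 1 and 6 h replicate 2).

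Klf6 (chromosome 13, 5861482 to 5870394, plus strand) encodes a widely expressed factor that many cell types induce after injury or growth stimulation. It stood at 54.6 and 45.9 CPM in control, 187 and 170 CPM at 3 h and 220 and 216 CPM at 6 h. All treated libraries were above all controls, and most of the rise was present at 3 h. The log2 fold change was 1.82 ± 0.13 (SE; edgeR adjusted p = 0.000225) at 3 h and 2.11 ± 0.13 (SE; edgeR adjusted p = 5.13e-05) at 6 h. The difference between 6 h and 3 h was 0.29 on the log2 scale with a 95% interval from 0.01 to 0.57 and did not pass (edgeR adjusted p = 0.258). The calls of Klf6 and Klf10 against control were kept at both times in all 18 alternatives.

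The courses of Klf6 and Klf10 were set against each other by a ratio. The ratio of Klf10 to Klf6 counts within a library, which no scaling can alter, was 1.93 and 2.12 without the drug, 1.86 and 1.97 after 3 h and 2.85 and 2.92 after 6 h. The 6 h ratios lay above all others, while those of control and 3 h overlapped.

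Klf2 (chromosome 8, 72319033 to 72321656, plus strand) encodes a factor whose protein is degraded after phosphorylation by ERK in stem cells. It stood at 267 and 272 CPM in control, 530 and 555 CPM at 3 h, and 425 and 699 CPM at 6 h. Both treated groups were above control, and the 6 h libraries lay on either side of those at 3 h. The log2 fold change was 1.01 ± 0.20 (SE; edgeR adjusted p = 0.0286) at 3 h and 1.06 ± 0.20 (SE; edgeR adjusted p = 0.00648) at 6 h. The 3 h call was lost without control replicate 2 (log2 1.03, adjusted p = 0.0594), without 3 h replicate 1 (1.04, adjusted p = 0.129) and without 3 h replicate 2 (0.98, adjusted p = 0.153). At 6 h the log2 value was 0.66 without replicate 2 and 1.37 without replicate 1, and the call held in both cases.

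Klf4 (chromosome 4, 55527143 to 55532466, minus strand) rose at 3 h and fell again by 6 h. It stood at 238 and 236 CPM in control, 347 and 380 CPM at 3 h, and 216 and 245 CPM at 6 h. The 3 h libraries were above all others, and the 6 h libraries lay on either side of control. The log2 fold change was 0.62 ± 0.11 (SE; edgeR adjusted p = 0.0215) at 3 h, -0.04 ± 0.11 (SE; edgeR adjusted p = 0.828) at 6 h with a 95% interval from -0.29 to 0.21, and -0.66 ± 0.11 (SE; edgeR adjusted p = 0.0294) from 3 h to 6 h. The 3 h call was lost without 3 h replicate 1 (adjusted p = 0.0906) or 3 h replicate 2 (adjusted p = 0.156), where the log2 values were 0.68 and 0.55. The fall after 3 h was not called without any 1 of the 4 treated libraries (adjusted p from 0.143 to 0.223, log2 from -0.75 to -0.57) and not with library size alone (log2 -0.53, adjusted p = 0.0638).

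Klf5 (chromosome 14, 99298691 to 99315036, plus strand) is needed for the early inner cell mass lineages. It stood at 756 and 783 CPM in control, 695 and 805 CPM at 3 h, and 553 and 458 CPM at 6 h. The 3 h libraries lay on either side of control and the 6 h libraries below both groups. At 3 h the log2 fold change was -0.04 ± 0.12 (SE; edgeR adjusted p = 0.891), with a 95% interval from -0.32 to 0.24. At 6 h it was -0.61 ± 0.12 (SE; edgeR adjusted p = 0.00862). The direct difference between the times was -0.57 ± 0.12 (SE; edgeR adjusted p = 0.0622), which missed the threshold here and passed it with DESeq2 (adjusted p = 0.0024) and limma-voom (adjusted p = 0.0287). Without 6 h replicate 2 the 6 h value was -0.48 (adjusted p = 0.0678), and with library size alone it was -0.25 (adjusted p = 0.148).

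**Figure D3:**
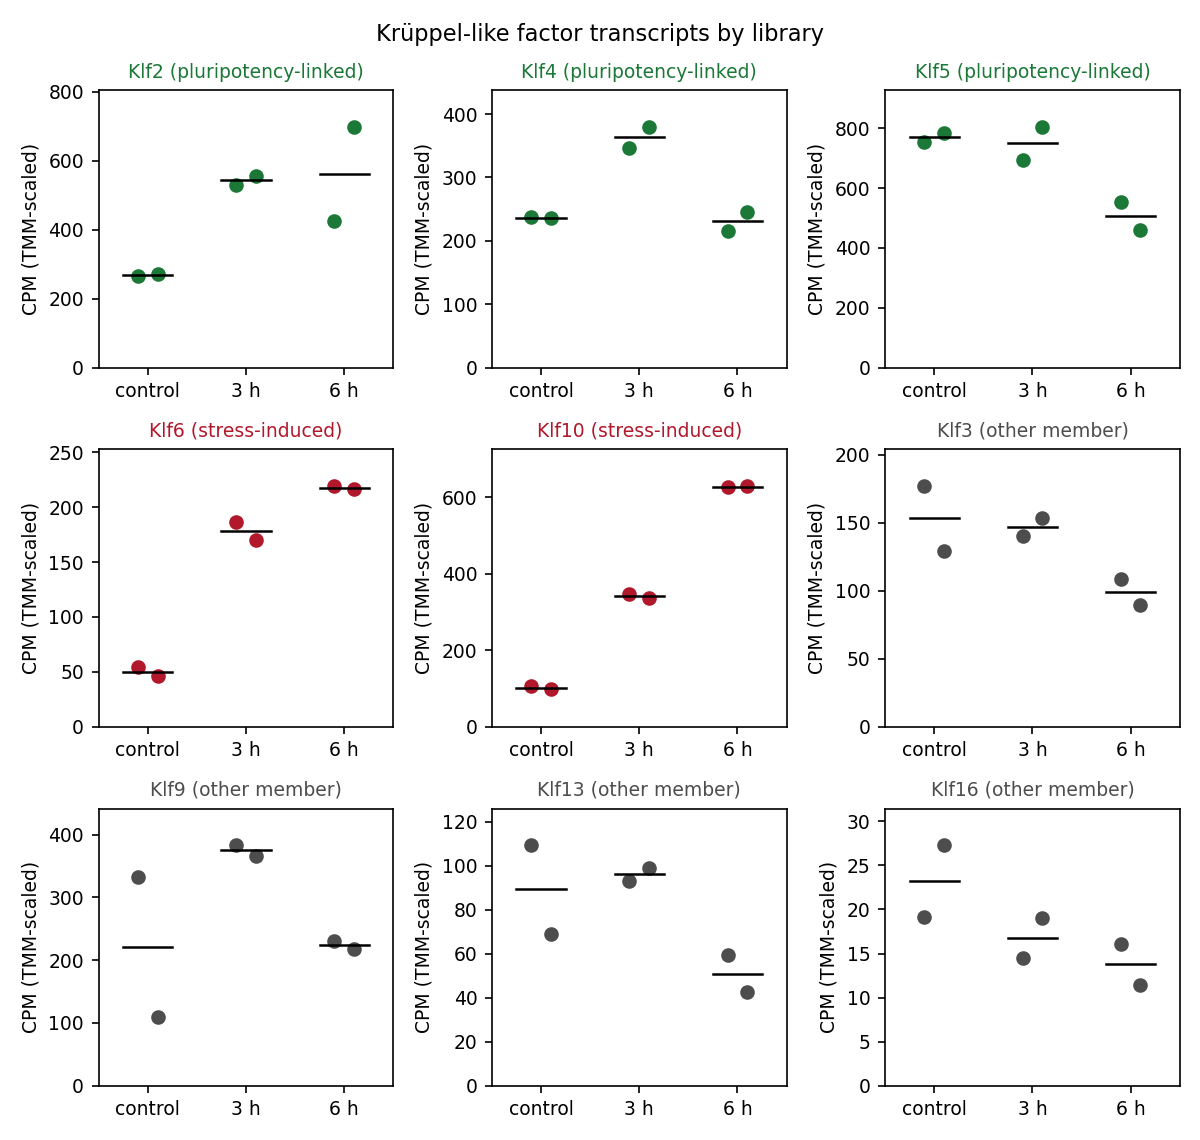
TMM-scaled CPM (y axis, from 0, a separate scale for each gene) of the 9 members in control, 3 h and 6 h; each point is 1 library and the bar is the mean of the 2. The Klf10 libraries stand in the order control, 3 h, 6 h, Klf4 peaks at 3 h, Klf5 is lowest at 6 h, and the control libraries of Klf9 stand at 333 and 110 CPM.

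By their calls against control the 3 pluripotency-linked members therefore differed: Klf2 was high at both times, Klf4 at 3 h alone, and Klf5 was low at 6 h. From 3 h to 6 h Klf4 and Klf5 fell by similar amounts (log2 -0.66 and -0.57), and edgeR called only the fall of Klf4. The ratio of Klf2 to Klf5 counts was 0.353 and 0.348 without the drug, 0.763 and 0.689 after 3 h and 0.768 and 1.52 after 6 h. The ratio of Klf4 to Klf5 was 0.315 and 0.301 without the drug, 0.499 and 0.472 after 3 h and 0.391 and 0.535 after 6 h. For both ratios the treated libraries of either time lay above control. The summed level of the 9 stem cell markers was highest at 3 h through 1 gene, Sox2, which averaged 2441, 3901 and 2356 CPM over the 3 groups. Without Sox2 the sum was 4423 and 4282 CPM in control, 3768 and 3880 CPM at 3 h and 3159 and 2918 CPM at 6 h, so it declined from group to group. The median log2 fold change of the 9 was -0.12 at 3 h and -0.37 at 6 h. Of these markers edgeR called 1 higher and 1 lower at 3 h, and 0 higher and 4 lower at 6 h, also 0 higher at an unadjusted p under 0.05, with DESeq2 and with limma-voom. Over all tested genes 3.6% were called higher and 1.3% lower at 3 h, and 14.8% higher and 14.3% lower at 6 h. Those shares also stand beside the calls of the other marker lists below. The primitive endoderm markers, all 8 in the files, summed to 86.3 and 91.7 CPM in control, 88.9 and 92.9 CPM at 3 h and 43.3 and 48.3 CPM at 6 h. That sum was led by Lama1 and Sox7, the 2 called lower at 6 h, while the median log2 fold change of the 8 was 1.28 at 3 h and 0.79 at 6 h. The 6 neural markers summed to between 332 and 344 CPM in control, 287 and 328 CPM at 3 h and 145 and 153 CPM at 6 h, with Neurog2 at no more than 3 counts in any library. Tubb3 led this sum, and without it the 6 h libraries stood at 69.7 and 85 CPM, overlapping the controls at 65.5 and 81.7 CPM. The median of the 5 tested neural markers was 0.57 at 3 h and -0.07 at 6 h, and at 6 h 1 was called higher and 1 lower. The trophoblast markers, 6 of 7 in the files, summed to between 39.2 and 61.8 CPM, with Cdx2 at no more than 3 counts. The part of these marker levels in the courses of Klf4 and Klf5 was not tested.

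Stress-induced members were set against pluripotency-linked members by the same within-library ratio. All 6 pairings of Klf6 or Klf10 with Klf2, Klf4 or Klf5 were higher in every treated library than in every control, at 3 h and at 6 h. The pairings share their genes, so they are not 6 separate observations. How many pairs of other genes do the same was not computed. As single genes, 53.2% and 66.8% of all tested genes were apart from control at 3 h and 6 h. In 5 of the 6 pairings the 6 h ratios also lay above the 3 h ratios, and the exception was Klf6 over Klf2. The ratio of Klf10 to Klf4 was 0.442 and 0.413 without the drug, 1.00 and 0.884 after 3 h and 2.89 and 2.57 after 6 h. The ratio of Klf10 to Klf5 was 0.139 and 0.124 without the drug, 0.499 and 0.417 after 3 h and 1.13 and 1.38 after 6 h. The ratio of Klf6 to Klf2 was 0.205 and 0.169 without the drug, 0.352 and 0.307 after 3 h and 0.517 and 0.310 after 6 h. A change in a ratio shows unequal change of its 2 genes; with 2 libraries a group it is given without a test.

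**Figure D4:**
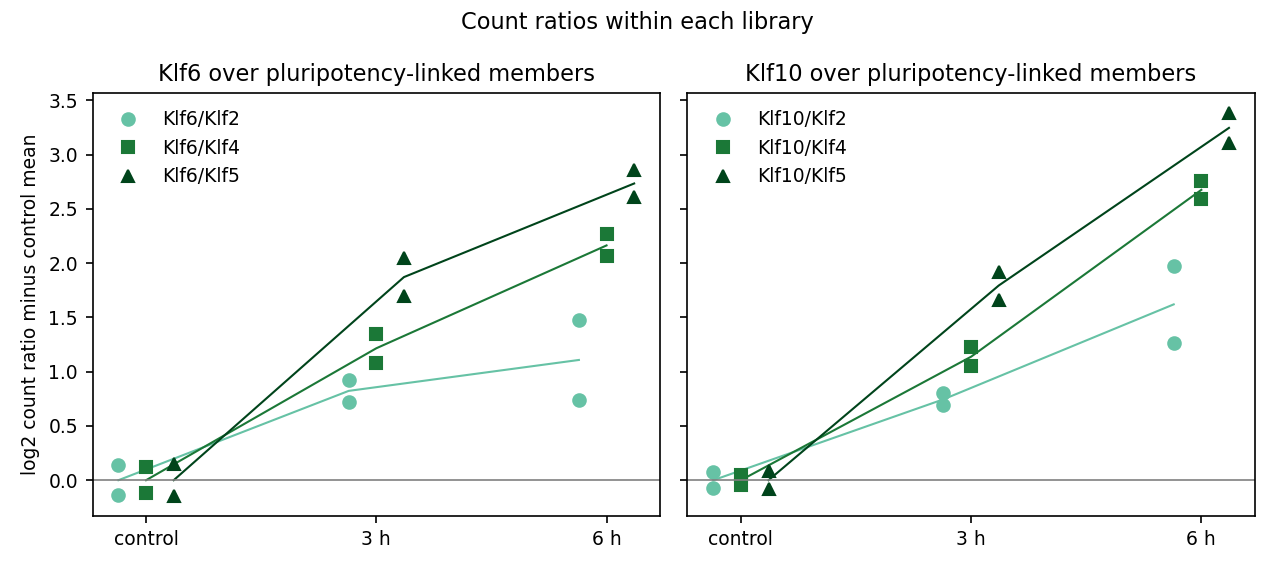
Log2 ratio of counts within each library, minus the mean of the control libraries (y axis), for Klf6 (left) and Klf10 (right) over Klf2, Klf4 and Klf5; points are libraries and lines join group means. All treated points lie above 0.6, and the widest shift is Klf10 over Klf5, at 3.11 and 3.39 in the 6 h libraries.

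Of the 4 remaining members, Klf3 and Klf13 were lower at 6 h, and Klf9 and Klf16 were not called at either time. Klf3 (chromosome 5, 64803388 to 64832901, plus strand), a repressor that recruits CtBP, stood at 177 and 129 CPM in control, 140 and 153 CPM at 3 h, and 109 and 89.3 CPM at 6 h. Its 6 h libraries were below all others, with a log2 fold change of -0.63 ± 0.17 (SE; edgeR adjusted p = 0.0249). Without control replicate 1 this was -0.38 (adjusted p = 0.104), without 6 h replicate 2 it was -0.50 (adjusted p = 0.162), and with library size alone -0.28 (adjusted p = 0.241). An RNA on the opposite strand, Gm20033, shares 404 exonic bases with Klf3, and without a stated strand setting its reads cannot be told apart; the other 8 members share no exonic base with another GENCODE M21 gene.

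Klf13 (chromosome 7, 63886351 to 63938915, minus strand), a factor first described in T lymphocytes, stood at 110 and 69.2 CPM in control, 93.2 and 99.2 CPM at 3 h, and 59.4 and 42.6 CPM at 6 h. The 6 h libraries were below all others. The log2 fold change at 6 h was -0.81 ± 0.23 (SE; edgeR adjusted p = 0.0294). It was -0.44 without control replicate 1 (adjusted p = 0.137), -0.60 without 6 h replicate 2 (adjusted p = 0.178) and -0.46 with library size alone (adjusted p = 0.153). Without 3 h replicate 1 or 2 its adjusted p was 0.0523 and 0.0515.

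Klf9 (chromosome 19, 23141226 to 23168134, plus strand), a target of glucocorticoid and thyroid hormone receptors, had control libraries that stood far apart, at 333 and 110 CPM. The 3 h libraries stood at 384 and 367 CPM and the 6 h libraries at 230 and 217 CPM, so the treated groups did not overlap and the 3 h group was the higher. Its log2 fold change was 0.76 ± 0.39 (SE; edgeR adjusted p = 0.266) at 3 h and 0.0077 ± 0.39 (SE; edgeR adjusted p = 0.991) at 6 h. Against control replicate 2 alone these values were 1.77 and 1.02 (adjusted p = 0.000306 and 0.00124), and against control replicate 1 alone 0.18 and -0.57 (adjusted p = 0.44 and 0.0115). The direction of the 6 h value thus turned with the control library used, and each direction was called. From 3 h to 6 h the value was -0.75 ± 0.39 (SE; edgeR adjusted p = 0.348). That difference passed when the control libraries were kept out of the fit (adjusted p = 0.00744).

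Klf16 (chromosome 10, 80567124 to 80577321, minus strand), described as a repressor of dopamine receptor genes, stood at 19.1 and 27.4 CPM in control, 14.5 and 19.1 CPM at 3 h, and 16.1 and 11.4 CPM at 6 h. Its 6 h libraries were below control, with a log2 fold change of -0.74 ± 0.25 (SE; edgeR adjusted p = 0.0567), a value that DESeq2 called (adjusted p = 0.0373). Between 3 h and 6 h the log2 differences of Klf3, Klf13 and Klf16 were -0.57, -0.91 and -0.29, and none passed (edgeR adjusted p = 0.133, 0.0908 and 0.598). Control replicate 2 was the lower control for Klf3, Klf9 and Klf13 and the higher for Klf16. Counting only whether the 2 groups overlapped, 6 members were apart from control at 3 h and 7 at 6 h, where 53.2% and 66.8% of all tested genes were apart. The 3 h and 6 h libraries were apart for 7 members, and for 54.1% of all tested genes.

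Transcript features that the choice of members did not use were read from GENCODE M21, taking for each gene the protein-coding transcript with the longest 3′ UTR. The pentamer ATTTA, the core of AU-rich elements that destabilise many early-response mRNAs, occurred 4 times in the 3′ UTR of Klf10 (1492 bases) and 7 times in that of Klf6 (3111 bases). It occurred 1 time each in Klf2 (737 bases), Klf4 (982 bases) and Klf5 (1841 bases). Among 11574 tested genes with such a transcript the median was 2, and 29.5% had at least 4 and 13.9% at least 7. High counts were not limited to the members that rose, as Klf3 had 7, Klf9 8, Klf16 4 and Klf13 3. Longer 3′ UTRs hold more sites. Per kilobase the count was 2.68 in Klf10, 2.25 in Klf6, 1.36 in Klf2, 1.02 in Klf4 and 0.54 in Klf5. It was 2.48 in Klf9, 2.23 in Klf16, 1.87 in Klf3 and 0.58 in Klf13. The median was 1.35 per kilobase over 11195 genes with a 3′ UTR of at least 100 bases. For Klf5 the transcript used had 3 exons, and its site starts at 99305280, while the gene runs to 99315036. For Klf10, on the minus strand, the first site lies at 38295573 to 38295601, while the gene runs down to 38291463. That distance is longer than the 1492 bases of the 3′ UTR used. The Klf5 and Klf10 values may therefore not hold for a 3′ UTR at the annotated end of either gene. The first site of 5 members is shown, with the pentamer in capitals.
Klf10, chr15:38295573-38295601, minus strand: tttgtttttgccATTTAtacttgagacca
Klf6, chr13:5868010-5868038, plus strand: tgtataagctgtATTTAcaaatcgcagtg
Klf2, chr8:72320988-72321016, plus strand: aaacagactgctATTTAttggaccttagg
Klf4, chr4:55527258-55527286, minus strand: tatgtaatataaATTTAagcaaacttcta
Klf5, chr14:99305280-99305308, plus strand: gctggcagagaaATTTAatagtgggtcgt
The longer nonamer TTATTTATT was found in Klf16 alone among the 9, and in 8.21% of all those genes.

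Among the other KLF paralogues, 6 of 8 genes were tested, and Klf14 and Klf17 were too low. Klf11, a close relative of Klf10 and likewise a TGF-beta inducible repressor, rose, from 19.7 ± 3.81 to 47 ± 6.29 CPM after 3 h and 65.3 ± 0.0357 CPM after 6 h (SD, n = 2). Its log2 fold changes were 1.27 and 1.74 (edgeR adjusted p = 0.00841 and 0.000532). Klf8 fell at 6 h, from 20.1 ± 0.464 to 10.1 ± 0.590 CPM (SD, n = 2; edgeR adjusted p = 0.00499). Klf7, Klf12, Klf15 and Klf1 were not called. Of the related Sp factors 7 of 9 were tested. At 3 h and 6 h edgeR called 0 and 2 of them, where 4.9% and 29% of all tested genes were called. At 3 h 2 were higher at an unadjusted p under 0.05, DESeq2 and limma-voom also called 0, and the smallest p was that of Sp6 (edgeR adjusted p = 0.0896). Those called at 6 h were Sp3, at 45.4 ± 3.62 CPM in control and 64.1 ± 5.71 CPM at 6 h (SD, n = 2; edgeR adjusted p = 0.0265), and Sp8, which stayed below the floor in control and reached 2.21 ± 0.519 CPM at 6 h (SD, n = 2; edgeR adjusted p = 0.00986).

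Of 12 genes for KLF cofactors, edgeR called 0 at 3 h, where 1 was higher and 2 lower at an unadjusted p under 0.05, limma-voom called 0 and DESeq2 1. Of all tested genes edgeR called 4.9% at 3 h, and 24.7% had an unadjusted p under 0.05. At 6 h 0 were higher and 3 lower by edgeR, DESeq2 and limma-voom alike, with 2 higher at an unadjusted p under 0.05 in edgeR. The 3 lower genes were the CtBP genes Ctbp1 and Ctbp2, partners of Klf3, and Sin3a, a partner of Klf9, Klf10, Klf13 and Klf16. Ctbp1 fell from 135 ± 9.80 to 74.3 ± 0.339 CPM (SD, n = 2; edgeR adjusted p = 0.00264), Ctbp2 by 0.79 on the log2 scale (edgeR adjusted p = 0.00301) and Sin3a by 1.11 (edgeR adjusted p = 0.00387). The median of the 12 was -0.14 at 3 h and -0.18 at 6 h, and 14.8% of all tested genes were higher and 14.3% lower at 6 h. Of 10 genes for ubiquitin ligases and deubiquitinases that act on KLF proteins, 1 was higher at 3 h and 2 at 6 h, where 3.6% and 14.8% of all tested genes were, and the list median was 0.14 at both times. Vhl rose from 10.1 ± 1.90 to 20.3 ± 0.134 CPM after 3 h and 28.4 ± 1.16 CPM after 6 h (SD, n = 2; edgeR adjusted p = 0.0235 and 0.00126), and Wwp1, a ligase of Klf2 and Klf5, was called higher after 6 h alone (log2 0.64, edgeR adjusted p = 0.0101).

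The LIF and naive pluripotency genes are the network to which Klf4 and Klf5 are linked. Of 18 tested, 3 were higher and 1 lower at 3 h, 3 higher and 6 lower at 6 h, and 0 higher and 3 lower at 6 h against 3 h by edgeR. In that last comparison 1 was higher at an unadjusted p under 0.05, and DESeq2 and limma-voom also called 0 higher. Of all tested genes, 3.6% were higher and 1.3% lower at 3 h, and 0.455% were higher and 1.18% lower at 6 h against 3 h. At 6 h against control 14.8% were higher and 14.3% lower, so the 3 higher of 18 are near that share. The list median was 0.09 at 3 h, -0.13 at 6 h and -0.24 between the times. Pou5f1, Sox2, Nanog, Zfp42, Esrrb and Tfcp2l1 stand in this list and among the stem cell markers, so these lists are not separate observations. Socs3, the feedback inhibitor of STAT3 signalling, averaged 93.6 ± 0.996 CPM without the drug, 242 ± 3.77 CPM after 3 h and 55.8 ± 2.24 CPM after 6 h (SD, n = 2). Like Klf4 it was high at 3 h, but it fell below control at 6 h (log2 -0.75, edgeR adjusted p = 0.00264). Tfcp2l1, a naive-state factor, fell from 166 ± 6.25 to 74.8 ± 8.13 CPM after 3 h and 58.2 ± 4.43 CPM after 6 h (SD, n = 2; edgeR adjusted p = 0.00302 and 0.000265).

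The early-response genes, to which Klf6 and Klf10 are usually counted, gave 19 tested of 21. At 3 h 8 were higher and 0 lower, at 6 h 5 were higher and 5 lower, and from 3 h to 6 h 0 rose and 8 fell (edgeR). Over all tested genes the shares were 3.6% higher and 1.3% lower at 3 h, and 14.8% higher and 14.3% lower at 6 h. Between the times they were 0.455% higher and 1.18% lower. The 0 lower at 3 h and the 0 that rose after 3 h are therefore near the shares of all genes. The list medians were 0.72, 0.02 and -0.86, against 0.02, 0.04 and 0.0060 over all tested genes. By limma-voom and DESeq2 the count lower at 3 h and the count higher from 3 h to 6 h were also 0, and at an unadjusted p under 0.05 edgeR gave 1 and 0. Jun, an AP-1 subunit, went from 25.9 ± 0.0307 to 253 ± 55.5 CPM after 3 h and 140 ± 1.39 CPM after 6 h (SD, n = 2), and its fall after 3 h was called (log2 -0.86, edgeR adjusted p = 0.0328). Klf10 rose over the same interval. Of 11 tested TGF-beta and SMAD genes edgeR called 0 at 3 h, where 3 were higher at an unadjusted p under 0.05, DESeq2 called 1 and limma-voom 0. Over all tested genes edgeR called 4.9% at 3 h, and 24.7% had an unadjusted p under 0.05. At 6 h 1 was higher and 3 lower by edgeR, where 14.8% and 14.3% of all tested genes were, and the list median was -0.34. Smad7, a direct SMAD target, stood at 60.1 ± 12.6 CPM in control, 97.8 ± 16.3 CPM at 3 h (SD, n = 2; edgeR adjusted p = 0.0697) and 41.4 ± 5.01 CPM at 6 h. Ski, a SMAD corepressor, fell from 110 ± 3.53 to 56.5 ± 2.56 CPM at 6 h (SD, n = 2; edgeR adjusted p = 0.00119).

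Glucocorticoid-responsive genes, the setting in which Klf9 is best known, were 7 of 8 tested, with 3 higher at 3 h and 1 at 6 h, where 3.6% and 14.8% of all tested genes were. The list median was 0.77 at 3 h and 0.20 at 6 h, and Dusp1 stands in this and the early-response list. Sgk1, averaging 260 ± 26.1 CPM without the drug, 443 ± 8.43 CPM after 3 h and 220 ± 0.676 CPM after 6 h (SD, n = 2), was called at 3 h (log2 0.77, edgeR adjusted p = 0.00869) and fell from there to 6 h (edgeR adjusted p = 0.00497). Cebpd rose at both times (log2 1.49 and 1.64, edgeR adjusted p = 0.0402 and 0.00738). Of 6 tested genes of primed epiblast, 1 was higher at 3 h, and 3 were higher and 2 lower at 6 h, where 14.8% and 14.3% of all tested genes were. Their median was 0.21 at 3 h and 1.06 at 6 h. Sox3 stood at 4.05 ± 2.38 CPM in control and 19 ± 2.69 CPM at 6 h (SD, n = 2; edgeR adjusted p = 0.00354), and Otx2 at 0.566 ± 0.456 and 4.47 ± 0.906 CPM (SD, n = 2; edgeR adjusted p = 0.00605). The control level of Otx2 was near the floor, as 3 counts equal 0.222 and 0.366 CPM in the control libraries.

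Genes with a pattern most like that of Klf10 and Klf4 were taken by Euclidean distance of log2 CPM, centred over the 6 libraries. The search covered 5215 tested genes with a mean of at least 20 CPM and a descriptive symbol. Predicted genes, clones and pseudogenes known by a number or accession were left out, so a nearer gene may exist among them. Nearest to Klf10 were Cited4, a CBP/p300-binding coactivator, Snhg12 and Snhg1, both hosts of small nucleolar RNAs, at distances of 0.30, 0.34 and 0.39. Their log2 fold changes at 6 h were 2.49, 2.52 and 2.49, against 2.63 for Klf10. Nearest to Klf4 were Zfp280b, Msc and Irf2bp2, at distances of 0.11, 0.18 and 0.18. These had log2 fold changes of 0.63, 0.53 and 0.61 at 3 h and of -0.04, -0.03 and 0.02 at 6 h, against 0.62 and -0.04 for Klf4.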

How the data were processed

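PolyA RNA of E14 cells was sequenced in 6 libraries. The authors deposited raw counts per gene and library, whole numbers with no normalization, with genome build mm10 per the submitters' processing notes. The aligner, the counting program, the strand setting and any use of molecular identifiers are not given in the sources used here. Groups were taken from the sample titles. All 6 libraries were fitted together with edgeR 4.0.16 (R 4.3.3), with TMM scaling, a filterByExpr filter (minimum count 10) that kept 12755 of 17485 genes, quasi-likelihood tests with 3 residual degrees of freedom per gene, and Benjamini-Hochberg adjustment over all genes tested; a gene was called at an adjusted p under 0.05. Standard errors are the log2 fold change divided by the root of the F statistic. The fit moderates the variance of each gene with information from the other genes. Tests and intervals therefore rest on more degrees of freedom than the 3 residual ones. The fit was tested on simulated data, where fitted fold changes tracked those put in and the share of false calls was above the nominal level in each comparison. Alternatives were DESeq2 1.42.0, limma-voom (limma 3.58.1), other scalings and filters, a replicate block, a test against a 1.5-fold change, thinned counts and leaving out each library, where the lone library of a group is assumed to vary like the other groups. In each gene list other than those of cell type markers, the gene with the smallest p at 3 h and at 6 h was named. Where 5 or fewer were called, others were named after their values were seen. The members and the lists were chosen with earlier results of these data known. Sequences came from RefSeq and GENCODE M21.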

Additional observations from a re-analysis of the deposited data

Results flagged for a closer look

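Klf10 and Klf4 differed between 3 h and 6 h by the direct test of the times, in opposite directions. The log2 difference of 6 h against 3 h was 0.88 for Klf10 and -0.66 for Klf4. These were the 2 members called in that comparison.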

How the results depend on the processing

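Of 486 values of single members under the alternatives, 412 kept direction and side of the threshold. With direction kept, 33 lost the call and 27 gained it, and 14 turned direction. Values that turned were counted only as such, also where the call changed, as for Klf9 at 6 h without control replicate 2. The count of all genes called at 3 h was 625, and it was 1373 with library size alone, 1816 with no filter, 1384 with DESeq2, 218 with only the libraries compared, 108 against a 1.5-fold change and 108 to 1033 without 1 library. At 6 h it was 3704, 773 against a 1.5-fold change and 1313 to 3578 without 1 library. Between the times it was 209, and it was 1063 with no filter, 667 with DESeq2, 508 with limma-voom, 563 with only the libraries compared, 25 against a 1.5-fold change and 14 to 595 without 1 library. Members called at 3 h numbered 2 against a 1.5-fold change and 2 to 5 without 1 library. At 6 h they numbered 3 with library size alone, 2 against a 1.5-fold change and 3 to 7 without 1 library. Between the times they numbered 1 with library size alone, 6 with no filter, 5 with DESeq2, 4 with limma-voom, 6 with only the libraries compared, 0 against a 1.5-fold change (1 higher and 1 lower at an unadjusted p under 0.05) and 0 to 6 without 1 library.

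Direction turned with library size alone for Klf5 at 3 h (0.19), Klf3 at 3 h (0.16) and Klf4 at 6 h (0.32), and for Klf9 at 6 h with RLE factors (-0.0057) and DESeq2 (-0.00062). It also turned for Klf4 at 6 h with at least 5 CPM in 2 libraries (0.0097) and for Klf2 between the times with limma-voom (-0.00075). Without 1 library, values ranged from -0.27 to 0.18 for Klf3, -0.19 to 0.47 for Klf13 and -0.15 to 0.064 for Klf5 at 3 h, from -0.57 to 1.02 for Klf9 and -0.13 to 0.047 for Klf4 at 6 h, and from -0.35 to 0.36 for Klf2 between the times; Klf9 also turned without 6 h replicate 1 (-0.036). The cause was not tested. Library size alone moved the median of all genes to 0.25 at 3 h, 0.40 at 6 h and 0.13 between the times, and the share of calls that were higher from 73.4% to 95.8%, from 50.8% to 88.1% and from 27.8% to 56.5%.

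With the replicate number as a block, 4, 6 and 2 members were called at 3 h, at 6 h and between the times, and 126 genes in all between the times. Deviations of libraries with the same number correlated at 0.118, -0.0256 and 0.0192, so the numbers were not taken to pair libraries. With 2 libraries a group, each leave-one-out fit rests on 1 library in a group.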
